A study of Equus caballus with 18 samples.

Results

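The comparison set superficial gluteal muscle on day 28 of an escalating clenbuterol course against the same muscle before dosing, in 4 exercised adult Thoroughbred horses called E1 to E4. It took the 8 arrays that the labels title as week 4 or baseline of these horses, out of 18 arrays of 9 horses in all. At the day 28 biopsy each horse was receiving 3.2 μg/kg by mouth 2 times a day, the last step of the schedule (21 days), after 0.8, 1.6 and 2.4 μg/kg for 3 days each. The baseline biopsy of each horse was taken the day before the first dose, with no drug on board. By the study's methods the horses were in exercise training, were rested on biopsy days, and were biopsied under sedation and local anaesthesia at both times. Each biopsy gave 1 EquGene-1.0-st array (a gene-level array of short probes), with 30559 probesets on the log2 scale. Of these, 16789 name a single gene symbol and stand for 16661 genes. No undosed horse enters the comparison, so the drug and the elapsed weeks of training cannot be told apart. Array scale also differed between the time points, as given below, and cannot be told apart from either. In such bulk biopsies, fewer cells of a type and less RNA per cell cannot be told apart either.

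Clenbuterol is a β-adrenergic agonist, a class of drug that acts through the G protein Gs on adenylyl cyclase. Cyclic AMP (cAMP) then releases the catalytic subunits of protein kinase A, which phosphorylate calcium-handling and metabolic enzymes and the transcription factor CREB. In skeletal muscle the drug class is known for growth of fast fibres, for a shift in myosin isoforms, for mobilizing fat and glycogen, and for loss of receptor response when dosing continues.

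The samples were muscle by their markers. By mean level over the 8 arrays, the 14 measured markers of muscle identity all lay above the median gene. Their median percentile in an array was 99.8 to 99.9. The arrays of the 2 time points differed in shape. On day 28 the medians lay between 4.45 and 4.5 and the standard deviations over probesets between 1.49 and 1.53, against 4.06 to 4.22 and 1.71 to 1.8 at baseline. The day 28 values were thus drawn closer together. Changes were therefore given in both of 2 ways. A raw change is the day 28 value minus the baseline value of the same horse. A relative change subtracts from it the median change, in that horse, of the probesets nearest to it in mean level over the 8 arrays (250 on each side). Both are log2 differences, tested within horse by a moderated test and adjusted over all probesets. A probeset is called at an adjusted p under 0.05. By a paired test of each probeset alone, the kind the study's methods name, 45 relative and 22 raw calls of named genes were lost. The baseline arrays of E1 and E4 stood apart by a high adipocyte signal. Without these 2 horses, a choice made after seeing the data, 1930 genes were called higher (11.6%) and 2219 lower (13.3%) on the relative scale. Values per horse are given in the order E1 to E4. The words "rose" and "fell" are kept for genes called on the relative scale.

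**Figure D1:**
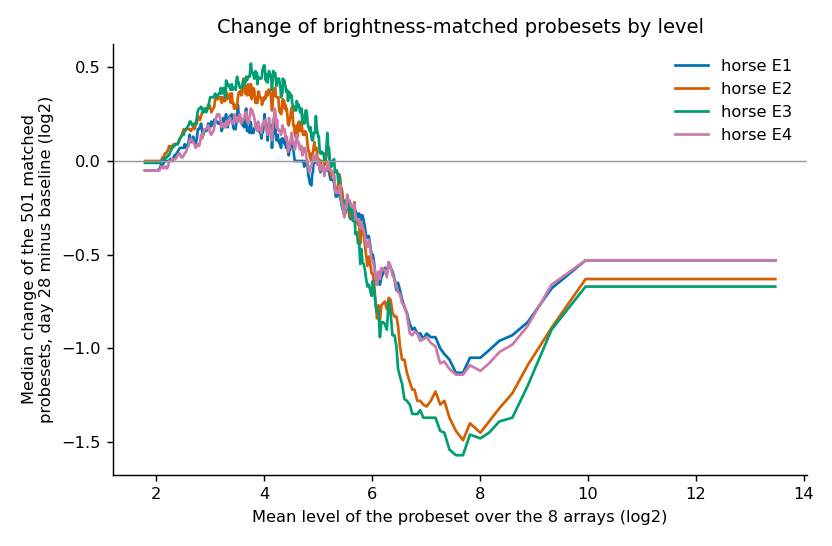
Median change of brightness-matched probesets (log2, day 28 minus baseline) against the mean level of the probeset over the 8 arrays (log2), 1 line per horse. In the brightest of 10 equal bins of probesets the median change was -0.91 in E1, -1.25 in E2, -1.35 in E3 and -0.93 in E4.

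The matched change followed the level in the same way in the 4 horses. It was 0.02, 0.09, 0.08 and 0.01 (E1 to E4) in the dimmest of 10 equal bins of probesets, 0.16, 0.35, 0.45 and 0.2 in the fourth bin, and -0.91, -1.25, -1.35 and -0.93 in the brightest bin. E2 and E3 showed the wider swing and E1 and E4 the narrower one. The 250 brightest probesets, with a mean level of 9.68 or more, share 1 matched change (-0.59 on average over the horses), so relative values of the brightest muscle genes are coarse. On the raw scale 7498 of 30559 probesets were called higher (24.5%) and 6164 lower (20.2%). On the relative scale 6754 were called higher (22.1%) and 5329 lower (17.4%). Among the 16661 genes the raw calls were 3643 higher (21.9%) and 4726 lower (28.4%), and the relative calls were 3290 higher (19.7%) and 3943 lower (23.7%). These percentages are the background for the raw and relative counts of gene lists below, as are the median changes of all genes, -0.033 raw and -0.11 relative. Other matchings have backgrounds of their own, given next.

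Most raw calls of genes kept their direction. Of the raw calls, 2803 higher (76.9%) and 3123 lower (66.1%) were called the same way on the relative scale, 840 and 1552 were not called on it, and 51 genes called lower raw were called higher relative. The reverse, higher raw and lower relative, occurred for 0 genes. Calls on both scales with the same sign in every horse numbered 2777 higher and 3089 lower genes, and relative calls beyond a 2-fold change 1660 and 1387. The share of higher calls depended on the scaling. It was 54.9% of called probesets raw, 44.2% after quantile normalization of the 8 arrays and 33.1% after centring each array on its median, which moved the median change of all probesets to -0.098 and -0.24, against 0.078 as deposited. It was 55.9% on the relative scale and 65.7% when probesets were matched only to those with a single symbol. The level used for matching also matters, because a probeset that falls is brighter at baseline than on day 28. Among the 16661 genes, matching on the day 28 level gave 3277 higher and 5036 lower calls (median -0.12). Matching on the baseline level gave 3121 and 2687 (median -0.06), and matching to single-symbol probesets 3955 and 2958 (median -0.0067). List counts under these matchings are to be read against these counts, not against the percentages above.

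**Figure D2:**
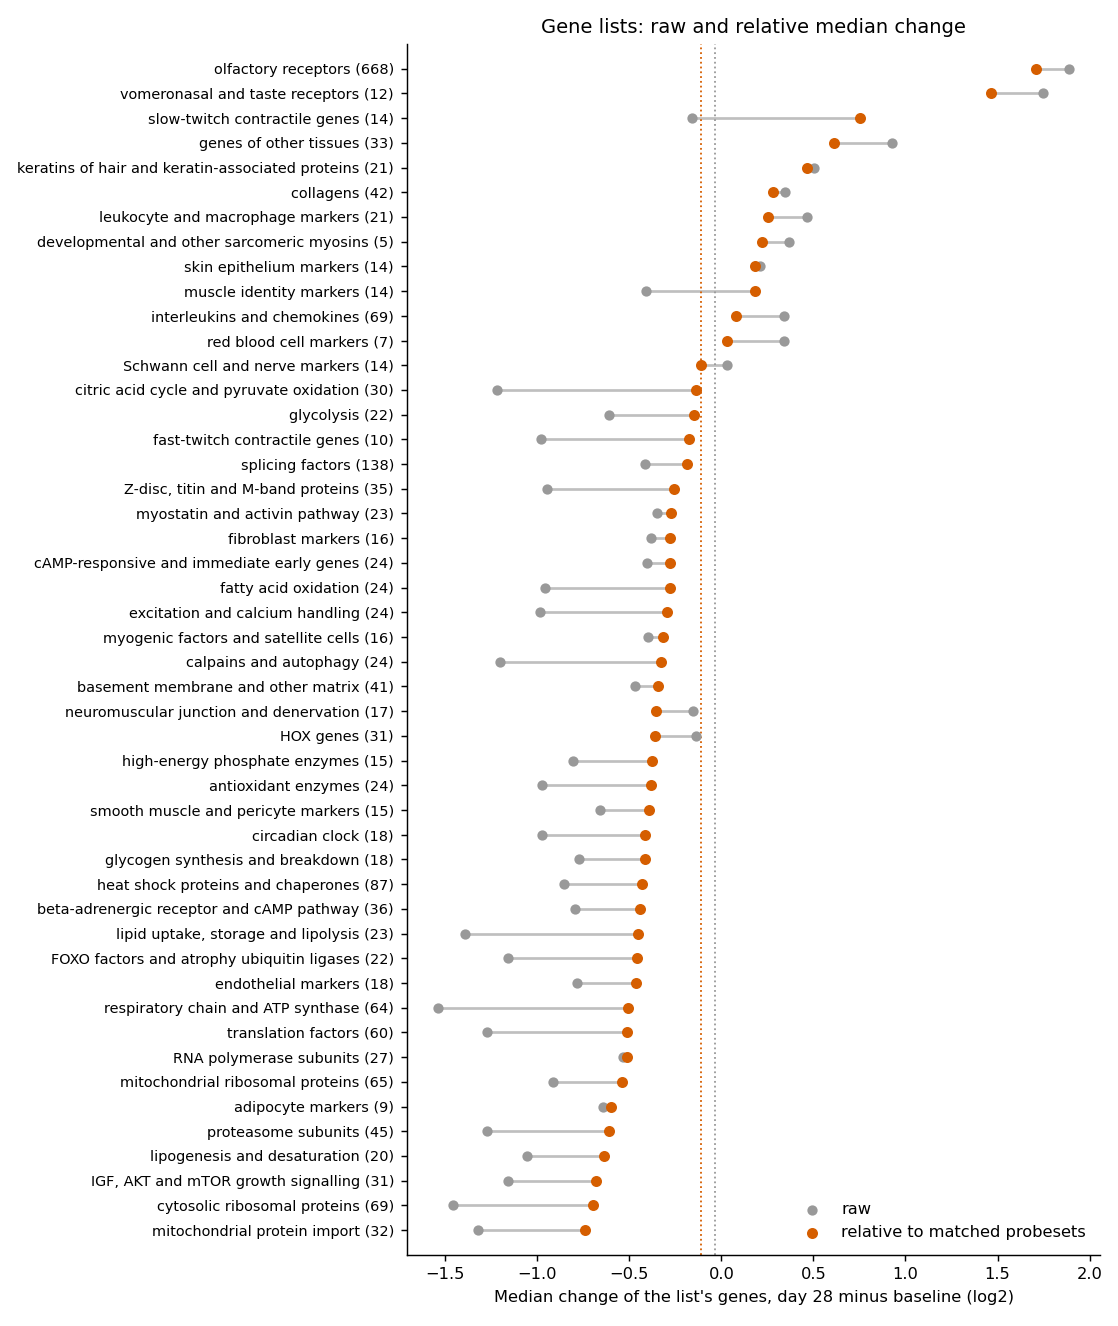
Median change (log2, day 28 minus baseline) of 48 gene lists, with the number of measured genes in parentheses; grey points are raw and orange points relative to brightness-matched probesets, and dotted lines mark the medians of all genes. Olfactory receptors are at 1.71 relative and mitochondrial import genes at -0.74.

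Contractile genes moved apart on the relative scale, and one fast myosin stood out. MYH2, which encodes the myosin of fast oxidative fibres (type 2A), was at 5.01, 5.02, 5.17 and 5.61 on day 28, against 11.02, 8.93, 10.12 and 10.87 at baseline in E1 to E4. All 4 day 28 values lie far below all 4 baseline values (raw change -5.03, standard error 0.31, adjusted p = 7.93e-05). Even against probesets of its own level it fell (relative change -3.72, standard error 0.38, adjusted p = 0.000608), the largest relative fall among all genes by the naming rule. MYH7, the myosin heavy chain of slow fibres, was at 9.88, 9.93, 9.92 and 10.06 on day 28, against 9.49, 9.07, 10.28 and 9.42 at baseline. It was higher on day 28 in E1, E2 and E4 and lower in E3, and the groups overlap. Its raw change was not called (raw change 0.38, standard error 0.22, adjusted p = 0.202), while its relative change was (relative change 0.97, standard error 0.21, adjusted p = 0.0109).

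Slow-twitch genes as a list lay above their matched probesets. Of 14 measured, 2 higher and 3 lower were called on the raw scale (median -0.16) and 9 higher and 2 lower on the relative scale (median 0.75). The direction turned with the matching, since calls were 1 higher and 3 lower (median -0.21) when matched on the day 28 level and 11 higher and 2 lower (median 1.06) when matched on the baseline level. MYL2, the regulatory light chain of slow and cardiac myosin, was at 10.17, 10.37, 10.24 and 10.26 on day 28, against 9.65, 9.42, 10.04 and 9.81 at baseline, higher in 4 of 4 horses (raw 0.53, relative 1.12, adjusted p = 0.00248). The raw call of MYL2 was lost when E1, E2 or E4 was left out (0.39 to 0.56), and its relative call, like that of MYH7, when matched on the day 28 level (0.29 for MYL2 and 0.15 for MYH7). TNNI1, slow troponin I, chosen after its values were seen, was level on the raw scale at 8.88 ± 0.15 on day 28, against 8.97 ± 0.26 at baseline (SD, n = 4 horses each), and its relative change of 0.88 became -0.038 when matched on the day 28 level. Members that fell were MYL6B, an alkali light chain (relative -1.87), and CSRP3, the muscle LIM protein of the Z-disc (relative -2.58). CSRP3 was at 3.46, 2.99, 2.9 and 3.19 on day 28, against 6.57, 4.49, 4.23 and 6.75 at baseline, with the baseline of E1 and E4 above that of E2 and E3. Without E1 and E4, a choice made after seeing the data, its relative change was -1.79.

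Fast-twitch genes other than MYH2 gave 4 relative calls, 1 higher and 3 lower. Of 10 measured, 0 higher and 8 lower were called on the raw scale (median -0.98) and 1 higher and 4 lower on the relative scale (median -0.18). Calls were 0 higher and 8 lower (median -1.19) when matched on the day 28 level and 3 higher and 2 lower (median 0.23) when matched on the baseline level, so the sign of the list's median is not fixed. MYOZ1 and MYOZ3, calsarcins that tie calcineurin to the Z-disc of fast fibres, fell with relative changes of -0.8 and -0.74 (adjusted p = 0.0079 and 0.0126). Matched on the baseline level, MYOZ3 was at -0.52 and no longer called. MYH1 and MYH4, the other adult fast heavy chains, have no probeset of their own on this annotation and are not analysed here. Among developmental and other sarcomeric myosins, of 5 measured, 2 higher and 0 lower were called on the raw scale (median 0.36) and 1 higher and 1 lower on the relative scale (median 0.22). MYH15 rose (4.48, 4.55, 4.52 and 4.63 on day 28, against 3.72, 3.68, 3.52 and 3.31 at baseline, relative 0.69). The embryonic MYH3 fell by 0.52 on the relative scale, a call lost without E1, E2 or E3 (-0.52 to -0.46) and when matched on the day 28 level (-0.33) or the baseline level (-0.45).

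Proteins of the sarcomere's frame gave more lower than higher calls. For Z-disc, titin and M-band proteins, of 35 measured, 0 higher and 27 lower were called on the raw scale (median -0.95) and 2 higher and 13 lower on the relative scale (median -0.26). Calls were 0 higher and 30 lower (median -1.06) when matched on the day 28 level and 7 higher and 5 lower (median 0.048) when matched on the baseline level, and the median changes sign between these. SMYD1, a methyltransferase needed to build thick filaments, was at 5.12, 4.64, 5.36 and 5.14 on day 28, against 7.34, 7.69, 8.31 and 7.2 at baseline. Its groups do not overlap and it fell (relative change -1.9, standard error 0.18, adjusted p = 0.000524). TRIM54, a muscle ring finger protein that stabilizes microtubules and titin, fell as well (relative -1.54). TRIM63 (MuRF1), a related ubiquitin ligase of thick filament proteins, chosen after its values were seen, was at 5.31 ± 0.22 on day 28, against 6.66 ± 0.41 at baseline (SD, n = 4 each). Its relative change of -0.76 was called, but not without E1 (-0.71), without E4 (-0.56), when matched on the baseline level (-0.35) or when matched to single-symbol probesets (-0.58).

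**Figure D3:**
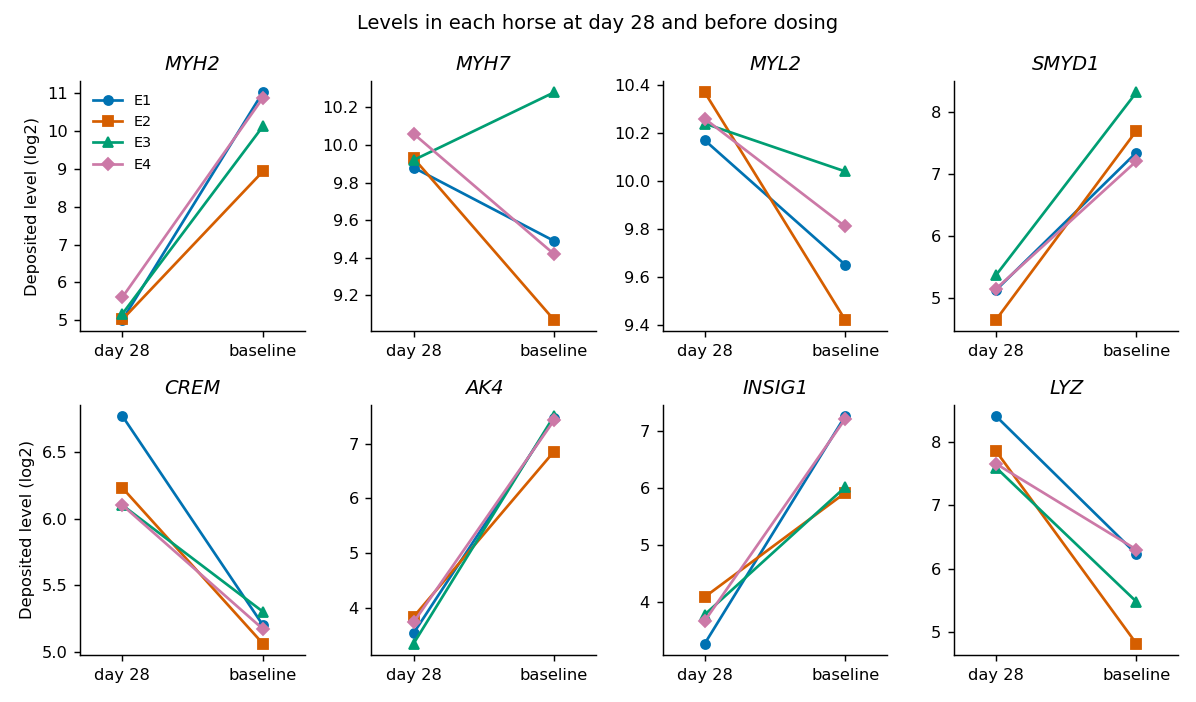
Deposited log2 level of 8 genes in horses E1 to E4 on day 28 (left) and at baseline (right), with a line for each horse. MYH2, SMYD1, AK4 and INSIG1 are lower on day 28 in 4 of 4 horses, MYL2, CREM and LYZ higher in 4 of 4, and MYH7 higher in 3 of 4.

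Genes of excitation and calcium handling gave more lower than higher calls. Of 24 measured, 0 higher and 16 lower were called on the raw scale (median -0.99) and 3 higher and 8 lower on the relative scale (median -0.3), and 0 higher and 17 lower (median -1.01) when matched on the day 28 level and 6 higher and 6 lower (median -0.026) when matched on the baseline level. ORAI1, the channel of store-operated calcium entry, was at 4.99, 5.03, 4.98 and 5.44 on day 28, against 7.42, 7.31, 7.09 and 7.62 at baseline (relative change -1.54, standard error 0.15, adjusted p = 0.000551). CACNA2D1, an accessory subunit of the voltage-gated calcium channel, fell (relative -0.84). ATP2A2, the slow-fibre and cardiac calcium pump SERCA2, was at 8.72, 8.32, 8.81 and 8.57 on day 28, against 8.89, 8.04, 9.25 and 8.76 at baseline, with groups that overlap and no raw call (adjusted p = 0.567). Its relative change of 0.96 was called but became -0.063 when matched on the day 28 level. The fast-fibre pump ATP2A1, named after its values were seen, did likewise (raw 0.05, relative 0.64, and -0.18 when matched on the day 28 level), and its relative call was lost without E1, E2 or E4 (0.58 to 0.64).

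At the neuromuscular junction, MUSK, the receptor kinase that clusters acetylcholine receptors, was at 5.19, 5.07, 5.07 and 5.6 on day 28, against 3.86, 4.09, 3.54 and 3.64 at baseline, with no overlap (relative change 1.24, standard error 0.2, adjusted p = 0.00342). LRP4, its partner in sensing agrin, had a relative change of -0.66 (adjusted p = 0.00886) and no raw call (-0.39, adjusted p = 0.0635). GADD45A, a stress gene that denervation induces, had a relative change of -1.8 (adjusted p = 0.00336). By the paired test of each probeset alone, the relative changes of MUSK and GADD45A were not called (adjusted p = 0.0571 and 0.0697). MUSK was the only gene of this list that was called higher on the relative scale. Of 17 measured, 1 higher and 4 lower were called on the raw scale (median -0.16) and 1 higher and 4 lower on the relative scale (median -0.36), with 1 higher and 2 lower (median -0.29) when matched on the baseline level. Of the myogenic factors, MYF5, which marks myoblasts and satellite cells, rose (relative 0.62), while MYOG and MYF6, factors of later differentiation, fell (relative -0.96 and -0.76). Matched on the baseline level, MYOG was at -0.62 and MYF6 at -0.3, and neither was called. For myogenic factors and satellite cells, of 16 measured, 3 higher and 8 lower were called on the raw scale (median -0.4) and 1 higher and 4 lower on the relative scale (median -0.32). Calls were 1 higher and 7 lower (median -0.4) when matched on the day 28 level and 1 higher and 0 lower (median -0.1) when matched on the baseline level.

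The pathway that clenbuterol acts through was lower in most of its called members. For the β-adrenergic and cAMP pathway, of 36 measured, 3 higher and 21 lower were called on the raw scale (median -0.79) and 4 higher and 17 lower on the relative scale (median -0.44). Calls were 3 higher and 21 lower (median -0.84) when matched on the day 28 level and 5 higher and 9 lower (median -0.2) when matched on the baseline level. PRKACA, the main catalytic subunit of protein kinase A, was at 4.65, 4.87, 4.23 and 4.41 on day 28, against 6.23, 6.51, 6.14 and 6.4 at baseline (relative change -1.58, standard error 0.14, adjusted p = 0.000404). CRTC2, a coactivator that CREB uses when cAMP is high, was at 4.3, 4.68, 4.67 and 4.62 on day 28, against 5.74, 5.92, 5.87 and 5.61 at baseline (relative change -1.29, standard error 0.14, adjusted p = 0.000816). CREM, a cAMP-responsive factor with both activator and repressor forms, went the other way at 6.77, 6.23, 6.1 and 6.1 on day 28, against 5.2, 5.06, 5.3 and 5.17 at baseline (relative change 1.48, standard error 0.16, adjusted p = 0.0008). For each of the 3 genes the groups do not overlap. The array value of CREM does not tell its isoforms apart.

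Immediate early genes and other targets of cAMP gave more lower than higher calls, and CREM was the 1 member called higher. Of 24 measured, 1 higher and 12 lower were called on the raw scale (median -0.4) and 1 higher and 10 lower on the relative scale (median -0.28). Calls were 1 higher and 12 lower (median -0.46) when matched on the day 28 level, 1 higher and 5 lower (median -0.22) when matched on the baseline level and 2 higher and 8 lower when matched to single-symbol probesets. JUNB and KLF6, early transcription factors, had relative changes of -1.31 and -1.42 (adjusted p = 0.00119 and 0.00164), lower in 4 of 4 horses. PPARGC1A, the coactivator PGC-1α that drives mitochondrial genes, chosen after its values were seen, was at 6.88, 6.27, 6.12 and 6.52 on day 28, against 7.91, 7.36, 7.43 and 7.72 at baseline. It lay lower on day 28 in each horse (raw -1.16), and its relative change was -0.018, since probesets of its level moved by -1.14. Matched on the day 28 level it was -1.1 and called lower. In the circadian clock, of 18 measured, 1 higher and 12 lower were called on the raw scale (median -0.97) and 1 higher and 7 lower on the relative scale (median -0.42), with 1 higher and 13 lower (median -1.0) when matched on the day 28 level and 1 higher and 2 lower (median -0.17) when matched on the baseline level. PER1, a repressor of the clock that cAMP also induces, was at 4.32, 4.74, 4.52 and 4.77 on day 28, against 6.08, 5.54, 6.78 and 6.43 at baseline (relative -1.5). TEF and NR1D2, clock output and loop genes, had relative changes of -1.11 and -0.96, and that of NR1D2 was -0.47 and not called when matched on the baseline level. Biopsies were taken at the same time of day by the study's methods.

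Growth signalling was lower in most of its members. For IGF, AKT and mTOR signalling, of 31 measured, 0 higher and 23 lower were called on the raw scale (median -1.16) and 1 higher and 19 lower on the relative scale (median -0.68), and 0 higher and 23 lower (median -1.24) when matched on the day 28 level and 1 higher and 8 lower (median -0.24) when matched on the baseline level. INSR, the insulin receptor, was at 3.86, 4.1, 4.26 and 4.49 on day 28, against 5.23, 5.22, 5.45 and 5.44 at baseline (relative change -1.27, standard error 0.14, adjusted p = 0.000806). IGF2, a growth factor of developing and regenerating muscle, and IGF2R, the receptor that clears it, fell by 1.08 and 1.08 on the relative scale. All 3 were lower in 4 of 4 horses. For the myostatin and activin pathway, of 23 measured, 0 higher and 9 lower were called on the raw scale (median -0.35) and 1 higher and 7 lower on the relative scale (median -0.27), with 0 higher and 12 lower (median -0.48) when matched on the day 28 level. ID2, ID3 and the receptor ACVR1B, which lie downstream of or receive TGF-β family ligands, fell (relative -1.48, -0.94 and -1.13). MSTN itself, the secreted brake on muscle growth, chosen after its values were seen, was at 5.91, 4.92, 5.43 and 5.63 on day 28, against 5.78, 6.53, 6.64 and 5.51 at baseline. It was lower in E2 and E3, and higher in E1 and E4, and was called on neither scale (raw adjusted p = 0.153). Without E1 and E4, a choice made after seeing the data, its raw change was -1.41 and called lower (adjusted p = 0.00876) and its relative change -0.84 and not called (adjusted p = 0.0542).

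Genes of muscle breakdown gave mostly lower calls too. For FOXO factors and atrophy ubiquitin ligases, of 22 measured, 0 higher and 18 lower were called on the raw scale (median -1.16) and 1 higher and 10 lower on the relative scale (median -0.46), with 0 higher and 18 lower (median -1.16) when matched on the day 28 level and 3 higher and 7 lower (median -0.31) when matched on the baseline level. FOXO1, a factor that switches on atrophy genes, was at 4.87, 4.73, 4.82 and 4.66 on day 28, against 7.1, 6.13, 6.3 and 6.91 at baseline (relative change -1.54, standard error 0.2, adjusted p = 0.00162). FOXO4 and TRAF6, a ligase of inflammatory signalling, fell by 1.82 and 0.98 on the relative scale. FBXO32 (atrogin-1), chosen after its values were seen, was at 8.05, 7.43, 7.51 and 7.64 on day 28, against 8.51, 8.51, 9.12 and 8.45 at baseline. Its raw change of -0.99 was called, and its relative change of 0.24 was not. The call turned with the matching, since it was -0.95 and called lower when matched on the day 28 level (adjusted p = 0.0264) and 0.63 and called higher when matched on the baseline level (adjusted p = 0.0194). For calpains and autophagy, of 24 measured, 1 higher and 19 lower were called on the raw scale (median -1.2) and 3 higher and 11 lower on the relative scale (median -0.33), with 1 higher and 20 lower (median -1.11) when matched on the day 28 level and 3 higher and 2 lower (median -0.11) when matched on the baseline level. CAPN1 and CAPN2, the ubiquitous calcium-dependent proteases, and BNIP3, a receptor for mitophagy, fell (relative -0.86, -1.65 and -1.12). CAPN1 was at -0.35 and not called when matched on the baseline level. BNIP3 was at -0.37 and not called when matched only to single-symbol probesets.

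Carbohydrate genes held both rises and falls. For glycolysis, of 22 measured, 0 higher and 12 lower were called on the raw scale (median -0.61) and 5 higher and 8 lower on the relative scale (median -0.15), with 0 higher and 13 lower (median -0.81) when matched on the day 28 level and 5 higher and 4 lower (median 0.14) when matched on the baseline level, so the sign of its median depends on the matching. HK1 and HK2, which trap glucose as glucose 6-phosphate, had relative changes of -0.98 and -1.1. HK2 was at 3.52, 3.82, 3.71 and 3.75 on day 28, against 4.29, 4.24, 5.14 and 4.27 at baseline, the baseline of E3 standing above the other 3. FBP2, muscle fructose bisphosphatase, was at 6.56, 6.61, 6.45 and 6.55 on day 28, against 8.62, 8.52, 9.52 and 8.65 at baseline, again with E3 highest at baseline, and fell (relative -0.96). For glycogen metabolism, of 18 measured, 0 higher and 12 lower were called on the raw scale (median -0.78) and 1 higher and 9 lower on the relative scale (median -0.42), with 0 higher and 15 lower (median -0.95) when matched on the day 28 level and 3 higher and 7 lower (median -0.11) when matched on the baseline level. Matched only to single-symbol probesets the median was 0.015. PPP1R3C and PPP1R3D, subunits that bring protein phosphatase 1 to glycogen and so favour its synthesis, fell (relative change -1.18, standard error 0.13, adjusted p = 0.000799 for PPP1R3C, and relative -1.06 for PPP1R3D). PHKG1, the catalytic subunit of the phosphorylase kinase that starts glycogen breakdown, fell by 1.14 on the relative scale.

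Among enzymes of high-energy phosphate, AK4, a mitochondrial adenylate kinase, had one of the largest falls of any gene. It was at 3.53, 3.83, 3.34 and 3.73 on day 28, against 7.47, 6.86, 7.51 and 7.43 at baseline (relative change -3.46, standard error 0.2, adjusted p = 9.00e-05). The lowest baseline value, that of E2, is still above every day 28 value. GAMT, which makes creatine, and SLC6A8, which imports it, fell by 1.2 and 0.9 on the relative scale. Of 15 measured, 0 higher and 8 lower were called on the raw scale (median -0.8) and 1 higher and 6 lower on the relative scale (median -0.38), with 0 higher and 10 lower (median -0.62) when matched on the day 28 level and 4 higher and 5 lower (median -0.092) when matched on the baseline level. CKM, muscle creatine kinase, chosen after its values were seen, was near the top of the array and flat, at 12.79, 12.78, 12.81 and 12.8 on day 28, against 12.73, 12.81, 12.68 and 12.83 at baseline. Its relative change of 0.62 became -0.2 when matched on the day 28 level.

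On the relative scale, respiratory chain genes were called lower more often than all genes (51.6% against 23.7%). Citric acid cycle genes were not (16.7%). For the respiratory chain and ATP synthase, of 64 measured, 1 higher and 60 lower were called on the raw scale (median -1.54) and 3 higher and 33 lower on the relative scale (median -0.5), with 1 higher and 60 lower (median -1.57) when matched on the day 28 level and 6 higher and 15 lower (median -0.21) when matched on the baseline level. UQCRC1 and UQCRH, core and hinge subunits of complex III, showed tight groups, UQCRC1 at 6.06, 5.99, 5.95 and 6.03 on day 28, against 8.43, 8.25, 8.59 and 8.47 at baseline and UQCRH at 5.69, 5.81, 5.6 and 6.05 on day 28, against 8.06, 8.22, 8.13 and 8.11 at baseline. They fell by 1.26 and 1.2 on the relative scale, against raw changes of -2.43 and -2.34. COX7B2, a testis-type subunit of cytochrome oxidase, rose instead (5.63, 4.91, 4.65 and 5.04 on day 28, against 3.39, 2.56, 2.7 and 3.09 at baseline, relative 1.82). For the citric acid cycle and pyruvate oxidation, of 30 measured, 0 higher and 25 lower were called on the raw scale (median -1.22) and 3 higher and 5 lower on the relative scale (median -0.14), with 1 higher and 25 lower (median -1.25) when matched on the day 28 level and 5 higher and 1 lower (median 0.16) when matched on the baseline level, so the sign of its median depends on the matching as well. In this list PC, pyruvate carboxylase, and IDH3G, a subunit of isocitrate dehydrogenase, fell (relative -1.35 and -0.66), and ME2, a malic enzyme, rose (relative 0.8). IDH3G was at -0.14 and not called when matched on the baseline level. The raw change of ME2 was 0.455 and not called (adjusted p = 0.0503).

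The machinery that builds mitochondria kept a fall beyond its matched probesets. For mitochondrial ribosomal proteins, of 65 measured, 0 higher and 50 lower were called on the raw scale (median -0.91) and 4 higher and 38 lower on the relative scale (median -0.54), with 1 higher and 50 lower (median -0.97) when matched on the day 28 level and 4 higher and 20 lower (median -0.36) when matched on the baseline level. MRPL11, a protein of the large subunit, was at 4.48, 5.09, 4.74 and 4.87 on day 28, against 6.51, 7.24, 7.01 and 6.81 at baseline (relative change -1.69, standard error 0.13, adjusted p = 0.000219), and MRPL35 and MRPL36 fell by 1.56 and 1.16. For mitochondrial protein import, of 32 measured, 1 higher and 25 lower were called on the raw scale (median -1.32) and 2 higher and 20 lower on the relative scale (median -0.74), with 1 higher and 27 lower (median -1.28) when matched on the day 28 level and 3 higher and 11 lower (median -0.45) when matched on the baseline level. Its median relative change was -0.66, -0.66, -0.67 and -0.66 in E1 to E4, nearly the same in each horse. TOMM22, a receptor of the outer membrane pore, TIMM50, a receptor of the inner one, and PMPCA, which cleaves off the import signal, fell by 1.54, 1.31 and 1.28. PMPCA was at 4.65, 4.61, 4.71 and 4.43 on day 28, against 5.89, 5.82, 6.04 and 5.99 at baseline, with no overlap.

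Genes of fat metabolism differed between horses at baseline. The 9 measured adipocyte markers summed to 335, 332, 293 and 344 (linear signal, E1 to E4) on day 28, against 2670, 424, 466 and 2850 at baseline. ADIPOQ, the hormone adiponectin made by fat cells, chosen after its values were seen, was at 5.67, 5.89, 5.14 and 5.71 on day 28, against 10.6, 5.08, 6.31 and 10.6 at baseline. The baseline biopsies of E1 and E4 thus carried a high adipocyte signal that the other 6 arrays did not. FASN, fatty acid synthase, was at 3.99, 4.28, 4.33 and 4.29 on day 28, against 9.22, 5.24, 5.2 and 9.32 at baseline, and SCD, which desaturates stearate, at 5.1, 5.22, 5.5 and 5.42 on day 28, against 11.37, 6.02, 7.26 and 11.4 at baseline. Both followed the same horses. FASN had a relative change of -2.64 (standard error 0.84, adjusted p = 0.0451), not called without E1 (-2.08), without E4 (-2.23), when matched on the baseline level (-1.72) or when matched to single-symbol probesets (-2.47). SCD was called raw (-3.7, adjusted p = 0.0158; not without E1, -2.85, or E4, -2.94) and not relative (-2.56, adjusted p = 0.0895), but called lower when matched on the day 28 level (-3.75, adjusted p = 0.0158). With E1 and E4 left out, a choice made after seeing the data, FASN was still called lower on both scales (raw -0.92, adjusted p = 0.0231, and relative -1.04, adjusted p = 0.0235). SCD was then called lower raw (-1.28, adjusted p = 0.0264) and not relative (-0.5, adjusted p = 0.247).

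INSIG1, which holds the sterol sensor in the endoplasmic reticulum, fell in horses of both kinds. It was at 3.27, 4.09, 3.78 and 3.67 on day 28, against 7.27, 5.92, 6.02 and 7.22 at baseline (relative change -2.91, standard error 0.35, adjusted p = 0.00115), and at -2.13 relative without E1 and E4. FADS2, a desaturase of polyunsaturated fatty acids, also fell (4.01, 4.18, 4.19 and 3.53 on day 28, against 6.26, 5.59, 5.52 and 6.18 at baseline, relative -1.97, and -1.48 without E1 and E4). ELOVL7, an elongase of long fatty acids, rose (relative 1.08). For lipogenesis and desaturation, of 20 measured, 1 higher and 11 lower were called on the raw scale (median -1.06) and 2 higher and 10 lower on the relative scale (median -0.64), with median relative changes of -1.13, -0.28, -0.37 and -1.22 in E1 to E4. The relative counts without E1 and E4 were 3 higher and 6 lower (median -0.49), and 2 higher and 6 lower (median -0.52) with all horses when matched on the baseline level. For lipid uptake, storage and lipolysis, of 23 measured, 0 higher and 13 lower were called on the raw scale (median -1.39) and 2 higher and 6 lower on the relative scale (median -0.45), with 0 higher and 14 lower (median -1.4) when matched on the day 28 level and 2 higher and 3 lower (median -0.14) when matched on the baseline level, and 1 higher and 4 lower (median -0.2) without E1 and E4. MGLL, LPIN1 and DGAT1, enzymes of monoglyceride breakdown and of triglyceride synthesis, fell by 1.7, 1.35 and 1.05. MGLL was at 4.72, 4.81, 4.47 and 5.14 on day 28, against 7.16, 6.4, 6.61 and 7.41 at baseline, lower in 4 of 4 horses. The part of the adipocyte signal in these results was not tested. Leaving out E1 and E4 keeps only 2 horses and does not remove that signal. In E2 and E3 the adipocyte markers summed to 332 and 293 on day 28, against 424 and 466 at baseline.

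The adipocyte markers themselves were called lower in 2 of 9 genes on each scale. The median was -0.64 raw and -0.6 relative, and without E1 and E4 it was 0.1 raw and -0.2 relative, with 1 higher and 0 lower relative calls. AQP7, the glycerol channel, was at 5.58, 5.82, 5.62 and 5.73 on day 28, against 6.76, 7.18, 6.87 and 6.92 at baseline (relative -0.6), and lost its call without E1 (-0.5) or E4 (-0.51) and when matched on the baseline level (-0.098) or to single-symbol probesets (-0.27). The relative change of RETN, resistin, was -0.44 and that of LIPE, hormone-sensitive lipase, -0.36, the second not called. Neither was called raw. The call of RETN was lost with any 1 horse left out (-0.52 to -0.38). For fatty acid oxidation, of 24 measured, 1 higher and 18 lower were called on the raw scale (median -0.96) and 2 higher and 8 lower on the relative scale (median -0.28), with 1 higher and 18 lower (median -0.92) when matched on the day 28 level and 3 higher and 3 lower (median -0.12) when matched on the baseline level. PPARA and PPARD, nuclear receptors that switch on fat burning, and ECHS1, an enoyl-CoA hydratase, fell by 1.3, 0.94 and 1.22. PPARA was at 5.76, 5.47, 5.01 and 5.25 on day 28, against 7.04, 7.29, 7.7 and 7.28 at baseline, with no overlap of the groups.

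Protein synthesis genes formed some of the most one-sided lists. For cytosolic ribosomal proteins, of 69 measured, 0 higher and 64 lower were called on the raw scale (median -1.46) and 0 higher and 42 lower on the relative scale (median -0.7), with 0 higher and 65 lower (median -1.52) when matched on the day 28 level and 3 higher and 20 lower (median -0.35) when matched on the baseline level. RPL22 was at 4.24, 3.96, 4.31 and 3.99 on day 28, against 6.92, 6.41, 6.79 and 6.6 at baseline (relative change -2.45, standard error 0.13, adjusted p = 6.61e-05). RPS19 and RPLP1 fell by 1.73 and 1.76 on the relative scale, and a second RPLP1 probeset by 0.69. FAU, whose product is a fusion with ribosomal protein S30, was at 3.93, 4.07, 3.6 and 3.72 on day 28, against 6.76, 6.88, 5.92 and 6.88 at baseline (relative -2.74). Ribosomal proteins have many processed copies in mammalian genomes, so signal from near-identical sequences cannot be told apart here. For translation factors, of 60 measured, 4 higher and 46 lower were called on the raw scale (median -1.27) and 3 higher and 28 lower on the relative scale (median -0.51), with 2 higher and 48 lower (median -1.25) when matched on the day 28 level and 4 higher and 12 lower (median -0.23) when matched on the baseline level. EEF2, the elongation factor that moves the ribosome along, was at 6.72, 6.66, 6.83 and 6.89 on day 28, against 9.3, 9.38, 9.46 and 9.42 at baseline, and fell by 1.35 relative. EEF1B2 and EIF4A1, an exchange factor and a helicase of initiation, fell by 1.76 and 1.47, and a second EIF4A1 probeset by 0.84.

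Genes of protein quality control gave mostly lower calls. For proteasome subunits, of 45 measured, 1 higher and 32 lower were called on the raw scale (median -1.27) and 2 higher and 23 lower on the relative scale (median -0.61), with 1 higher and 33 lower (median -1.24) when matched on the day 28 level and 2 higher and 10 lower (median -0.25) when matched on the baseline level. PSMB6, a catalytic subunit, was at 7.22, 6.54, 6.66 and 6.62 on day 28, against 9.73, 9.76, 9.21 and 9.93 at baseline (relative change -1.67, standard error 0.2, adjusted p = 0.00121), and PSMC5 and PSMD13 of the regulatory cap fell by 1.6 and 1.31. For heat shock proteins and chaperones, of 87 measured, 5 higher and 53 lower were called on the raw scale (median -0.85) and 6 higher and 39 lower on the relative scale (median -0.43), with 5 higher and 53 lower (median -0.92) when matched on the day 28 level and 8 higher and 24 lower (median -0.26) when matched on the baseline level. HSPA1B, an inducible HSP70, was at 5.18, 4.04, 4.4 and 4.54 on day 28, against 6.96, 7.49, 7.56 and 6.96 at baseline (relative change -2.2, standard error 0.26, adjusted p = 0.00106). DNAJB1 and DNAJC8, J-domain proteins of the kind that partners HSP70, fell by 1.18 and 1.86. For antioxidant enzymes, of 24 measured, 0 higher and 17 lower were called on the raw scale (median -0.97) and 1 higher and 9 lower on the relative scale (median -0.38), with 0 higher and 17 lower (median -0.98) when matched on the day 28 level and 3 higher and 6 lower (median -0.085) when matched on the baseline level. KEAP1, the sensor that restrains NRF2, and PRDX4, a peroxiredoxin of the secretory pathway, fell by 1.46 and 1.26. TXNRD1, thioredoxin reductase and a target of NRF2, rose (6.66, 6.25, 6.22 and 6.22 on day 28, against 6.06, 5.49, 6.29 and 5.89 at baseline, relative 1.16), but was at 0.42 and not called when matched on the day 28 level.

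Transcription and RNA processing genes split in both directions. For RNA polymerase subunits, of 27 measured, 3 higher and 15 lower were called on the raw scale (median -0.54) and 3 higher and 13 lower on the relative scale (median -0.51), with 3 higher and 16 lower (median -0.68) when matched on the day 28 level and 3 higher and 10 lower (median -0.34) when matched on the baseline level. POLR3K, a small subunit of polymerase III, was at 5.77, 5.48, 4.88 and 4.93 on day 28, against 8.76, 8.87, 8.32 and 9.19 at baseline (relative -2.38). POLR3G, another subunit of the same enzyme and one of dividing cells, was at 6.08, 5.81, 5.86 and 5.55 on day 28, against 3.77, 3.6, 3.56 and 3.29 at baseline (relative 2.13). The 2 subunits thus moved in opposite directions in 4 of 4 horses, and POLR2C of polymerase II fell by 1.38. For splicing factors, of 138 measured, 13 higher and 62 lower were called on the raw scale (median -0.42) and 20 higher and 48 lower on the relative scale (median -0.19), with 14 higher and 67 lower (median -0.47) when matched on the day 28 level and 24 higher and 26 lower (median -0.068) when matched on the baseline level. SRSF5, an SR protein, U2AF1, which reads the splice acceptor, and SF3B5 of the U2 particle fell by 2.03, 1.8 and 1.67.

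HOX genes, which keep positional identity along the body in adult muscle, were never called higher. Of 31 measured, 0 higher and 9 lower were called on the raw scale (median -0.14) and 0 higher and 13 lower on the relative scale (median -0.36). The relative changes of all 31 ran between -2.77 and -0.075. Calls were 0 higher and 13 lower (median -0.24) when matched on the day 28 level and 0 higher and 16 lower (median -0.49) when matched on the baseline level. HOXD8 was at 4.52, 4.14, 4.28 and 4.34 on day 28, against 7.36, 8.02, 7.62 and 7.45 at baseline (relative change -2.76, standard error 0.18, adjusted p = 0.000139), with no overlap. HOXA7 was at 3.76, 3.65, 3.61 and 3.8 on day 28, against 5.26, 5.44, 5.82 and 5.76 at baseline (relative -2.01), and HOXA9 fell by 1.09.

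**Figure D4:**
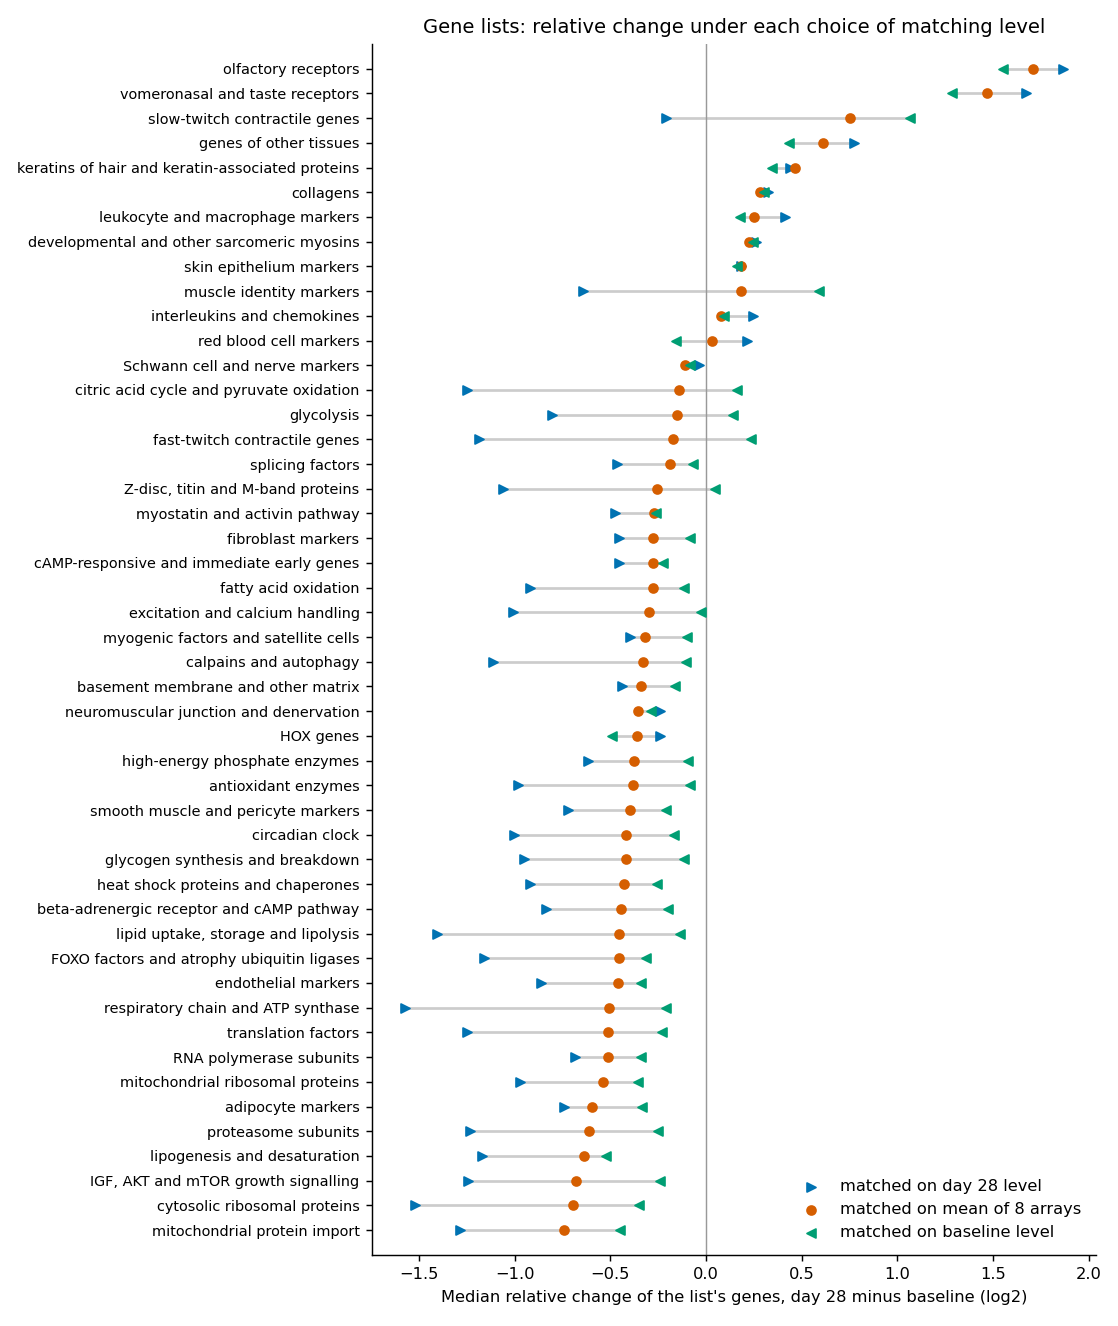
Median relative change (log2, day 28 minus baseline) of the 48 gene lists when probesets are matched on the day 28 level (blue), on the mean of the 8 arrays (orange) or on the baseline level (green). Slow-twitch genes are at -0.21, 0.75 and 1.06, while olfactory receptors stay between 1.55 and 1.87.

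Matrix genes split by type. For collagens, of 42 measured, 16 higher and 7 lower were called on the raw scale (median 0.35) and 14 higher and 5 lower on the relative scale (median 0.28), with 16 higher and 8 lower (median 0.32) when matched on the day 28 level and 13 higher and 2 lower (median 0.3) when matched on the baseline level. COL11A1, a fibril collagen of cartilage, was at 6.46, 6.35, 6.58 and 6.51 on day 28, against 4.56, 4.4, 4.6 and 4.83 at baseline (relative change 2.08, standard error 0.13, adjusted p = 0.000127), and COL25A1 and COL28A1, minor collagens, rose by 1.34 and 1.18. Of the abundant fibril collagens, COL1A1 was at 4.98, 5.78, 5.19 and 5.43 on day 28, against 6.37, 5.84, 6.02 and 6.34 at baseline, called lower raw (-0.8; not without E1, E3 or E4, -0.79 to -0.6) and not relative (-0.45). Its relative change was called lower when matched on the day 28 level (-0.78, adjusted p = 0.023) and without E2 (-0.75, adjusted p = 0.0438). COL1A2 and COL3A1 were called on neither scale (relative 0.46 and -0.2). COL1A2 was called higher when matched to single-symbol probesets (0.75, adjusted p = 0.0202) and in a narrower window of matched probesets (0.52, adjusted p = 0.0462), and COL3A1 at baseline was highest in E1 and E4 (7.33, 5.2, 5.66 and 7.23). For basement membrane and other matrix, of 41 measured, 3 higher and 21 lower were called on the raw scale (median -0.47) and 2 higher and 12 lower on the relative scale (median -0.34), with 3 higher and 20 lower (median -0.44) when matched on the day 28 level and 3 higher and 8 lower (median -0.16) when matched on the baseline level. SERPINH1, the collagen chaperone HSP47, was at 4.21, 4.1, 4.43 and 4.11 on day 28, against 6.53, 6.2, 6.78 and 6.65 at baseline (relative change -2.18, standard error 0.14, adjusted p = 0.000122). THBS4, a matrix protein of tendon and muscle, and ITGA7, the laminin receptor of muscle fibres, fell by 1.68 and 1.58. MMP13, a collagenase, rose (5.36, 4.72, 4.79 and 4.35 on day 28, against 3.28, 2.96, 3.08 and 3.27 at baseline, relative 1.36).

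Markers of blood vessels gave lower calls in the larger number. The 18 endothelial markers summed to 682 to 688 on day 28 and 1250 to 1870 at baseline (linear signal), with no overlap. Such sums are raw and take no account of the change of matched probesets. The 14 muscle identity markers also summed lower without overlap, to 34000 to 36100 on day 28, against 40000 to 45000 at baseline. Of 18 measured, 0 higher and 11 lower were called on the raw scale (median -0.78) and 0 higher and 10 lower on the relative scale (median -0.46), with 0 higher and 12 lower (median -0.86) when matched on the day 28 level and 1 higher and 7 lower (median -0.34) when matched on the baseline level. TEK, the angiopoietin receptor, was at 3.65, 3.81, 3.64 and 3.69 on day 28, against 6.48, 5.6, 6.22 and 6.41 at baseline (relative change -2.54, standard error 0.19, adjusted p = 0.000221). PECAM1, an adhesion protein between endothelial cells, was at 5.07, 5.29, 4.42 and 5.07 on day 28, against 8.01, 7.31, 7.68 and 7.97 at baseline (relative -2.12), and ENG, an accessory TGF-β receptor, fell by 1.3. The 15 smooth muscle and pericyte markers summed to 2180 to 2510 on day 28 and 2780 to 3610 at baseline. 1 higher and 8 lower were called of these 15 on the raw scale (median -0.66) and 1 higher and 6 lower on the relative scale (median -0.4), with 1 higher and 9 lower (median -0.72) when matched on the day 28 level and 2 higher and 2 lower (median -0.21) when matched on the baseline level. TAGLN, LMOD1 and PDGFRB fell by 1.67, 0.79 and 0.88, the last not called without E1 (-0.79) or when matched on the baseline level (-0.54). The 16 fibroblast markers summed to 892 to 1100 on day 28 and 1830 to 2440 at baseline, with 0 higher and 6 lower raw and 1 higher and 2 lower relative calls (medians -0.38 and -0.28), and 0 higher and 7 lower (median -0.46) when matched on the day 28 level. PDGFRA fell by 0.84. PDGFRL had a relative change of -0.58, not called without E2, E3 or E4 (-0.62 to -0.49), and MFAP5 one of 0.76, not called without E1, E2 or E3 (0.52 to 0.8). MFAP5 was at -0.43 when matched on the day 28 level. On the raw scale neither gene was called, and MFAP5 went the other way (-0.39, lower in 3 of 4 horses, adjusted p = 0.111). The part of these cells in the matrix results was not tested.

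Immune genes gave mostly higher calls. The 21 leukocyte and macrophage markers summed to 781 to 939 on day 28 and 394 to 555 at baseline, again with no overlap. Of 21 measured, 10 higher and 0 lower were called on the raw scale (median 0.46) and 8 higher and 0 lower on the relative scale (median 0.25). LYZ, lysozyme of myeloid cells, was at 8.4, 7.85, 7.59 and 7.65 on day 28, against 6.23, 4.82, 5.48 and 6.3 at baseline (relative change 3.27, standard error 0.31, adjusted p = 0.000478). MRC1, a receptor of tissue macrophages, and MS4A1, the B cell antigen CD20, rose by 1.12 and 1.28. The median change of the list, 0.25 relative, is far smaller than that of LYZ. For interleukins and chemokines, of 69 measured, 24 higher and 3 lower were called on the raw scale (median 0.34) and 23 higher and 4 lower on the relative scale (median 0.08). CXCL13, a chemokine that draws B cells, was at 6.79, 6.15, 6.41 and 6.26 on day 28, against 3.96, 3.15, 3.68 and 3.82 at baseline (relative change 2.76, standard error 0.15, adjusted p = 6.72e-05). CXCL11 and XCL1, chemokines for T cells and dendritic cells, rose by 2.14 and 1.66. Each of the 3 chemokines was higher in 4 of 4 horses. The part of leukocyte number in these changes was not tested.

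Other cell types gave calls in both directions. The 7 red blood cell markers summed to 103 to 119 on day 28 and 139 to 204 at baseline, with 3 higher and 1 lower raw and 2 higher and 2 lower relative calls (medians 0.34 and 0.032, the second -0.16 when matched on the baseline level). SPTB, the spectrin chain shared with muscle, fell by 1.11. ALAS2 and HEMGN had relative changes of 0.55 and 0.52, neither called when matched on the baseline level nor with E1, E2 or E4 left out (0.46 to 0.59 for ALAS2 and 0.58 to 0.59 for HEMGN, which was at 0.41 and not called without E3). The 14 Schwann cell and nerve markers summed to 312 to 347 on day 28 and 368 to 411 at baseline, with 1 higher and 2 lower raw and 1 higher and 3 lower relative calls (medians 0.03 and -0.11). S100B rose by 0.76, CNP fell by 0.89, and MBP had a relative change of -0.55, not called without E2 (-0.46) or E4 (-0.56). The raw change of MBP was -0.25 and not called (adjusted p = 0.206). The 14 skin epithelium markers summed to 313 to 373 on day 28 and 300 to 437 at baseline, with 6 higher and 2 lower raw and 5 higher and 4 lower relative calls (medians 0.21 and 0.18). The desmosomal cadherins DSC2 and DSC3 and the adhesion protein EPCAM rose by 1.23, 1.5 and 0.78. The 4 members that fell, chosen after their values were seen, were the keratins KRT1, KRT5 and KRT14 and PERP, a protein of desmosomes (relative -2.62, -0.57, -0.62 and -0.62), and each lost its call without E4 and, except KRT5, without E1. PERP lost it without E3 too, and when matched on the baseline level neither PERP (-0.28) nor KRT1 (-2.15) was called, nor was KRT14 when matched on the day 28 level (-0.44). KRT1, a keratin of the upper epidermis, was at 2.62, 3.2, 2.73 and 2.91 on day 28, against 6.9, 3.8, 2.82 and 7.12 at baseline, so its baseline was high in E1 and E4, as was that of the adipocyte markers. Without both horses, none of the 4 was called on the relative scale (-0.68 to -0.36). With all horses, KRT5 and KRT14 were not called raw (-0.305 and -0.3225, adjusted p = 0.1585 and 0.1945). For muscle identity markers, of 14 measured, 0 higher and 7 lower were called on the raw scale (median -0.41) and 4 higher and 2 lower on the relative scale (median 0.18), with 0 higher and 10 lower (median -0.64) when matched on the day 28 level and 9 higher and 0 lower (median 0.59) when matched on the baseline level. MB, myoglobin, which stores oxygen in oxidative fibres, was at 9.78, 10.04, 9.82 and 10.08 on day 28, against 11.68, 11.14, 11.33 and 11.69 at baseline (relative -0.94), while ACTA1 and PYGM, actin and glycogen phosphorylase of skeletal muscle, were flat raw (0.15 and 0.12) with relative changes of 0.74 and 0.71 that became -0.085 and -0.12 when matched on the day 28 level. MB was not called when matched on the baseline level (-0.53), to single-symbol probesets (-0.19) or over 2001 probesets (-0.48).

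Receptors of smell and taste, expressed mainly in sensory tissue, gave many of the largest rises. Of 668 olfactory receptors, 598 were called higher and 0 lower raw (median 1.89), and 563 higher and 1 lower relative (median 1.71), against 19.7% of genes called higher relative. The median was 2.01, 1.78, 1.4 and 1.83 in E1 to E4. The 1 receptor called lower, named after its values were seen, was OR2A14CP. OR4L20 was at 9.35, 9.12, 8.96 and 9.12 on day 28, against 5.04, 5.07, 5.44 and 4.96 at baseline (relative change 5.15, standard error 0.14, adjusted p = 4.33e-05), and OR4C265P at 9.03, 8.79, 8.9 and 8.88 on day 28, against 4.69, 4.04, 5.37 and 4.55 at baseline (relative change 5.32, standard error 0.2, adjusted p = 4.33e-05). OR4F14N, OR4K17P and OR9M1EP rose by 5.06, 4.9 and 4.82, and OR6C320 and OR10R3D, which with OR4L20 have the 3 smallest p of the list, by 4.25 and 4.22. All 7 were higher in 4 of 4 horses with no overlap. For the 5 with the largest rises, being higher in every horse was a condition of the choice. Olfactory receptor genes form large families of close copies, and a symbol that ends in P marks a pseudogene, so the values of single members are uncertain.

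Vomeronasal and taste receptors gave higher calls likewise. Of 12 measured, 10 higher and 0 lower were called on the raw scale (median 1.75) and 8 higher and 0 lower on the relative scale (median 1.47). TAS2R9, a bitter taste receptor, was at 6.75, 6.16, 6.69 and 6.35 on day 28, against 3.33, 2.83, 3.51 and 3.0 at baseline (relative change 3.3, standard error 0.14, adjusted p = 4.72e-05), and TAS2R4 and TAS2R1 rose by 2.8 and 2.7. For hair keratins and keratin-associated proteins, of 21 measured, 10 higher and 0 lower were called on the raw scale (median 0.5) and 8 higher and 0 lower on the relative scale (median 0.46). KRTAP26-1 was at 6.49, 6.69, 6.9 and 6.65 on day 28, against 4.69, 4.12, 4.84 and 4.59 at baseline (relative 2.37). KRTAP24-1 and KRTAP8-1 rose by 1.12 and 0.98, and a second KRTAP8-1 probeset was at 0.27 and not called. For genes typical of other tissues, of 33 measured, 18 higher and 1 lower were called on the raw scale (median 0.92) and 17 higher and 1 lower on the relative scale (median 0.61). AMBN of tooth enamel, CGA, the subunit shared by pituitary glycoprotein hormones, and TSHB, the thyrotropin subunit, rose by 2.4, 2.17 and 2.03. TSHB was at 5.21, 4.59, 5.21 and 5.02 on day 28, against 3.04, 2.41, 2.63 and 2.68 at baseline, with no overlap.

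**Figure D5:**
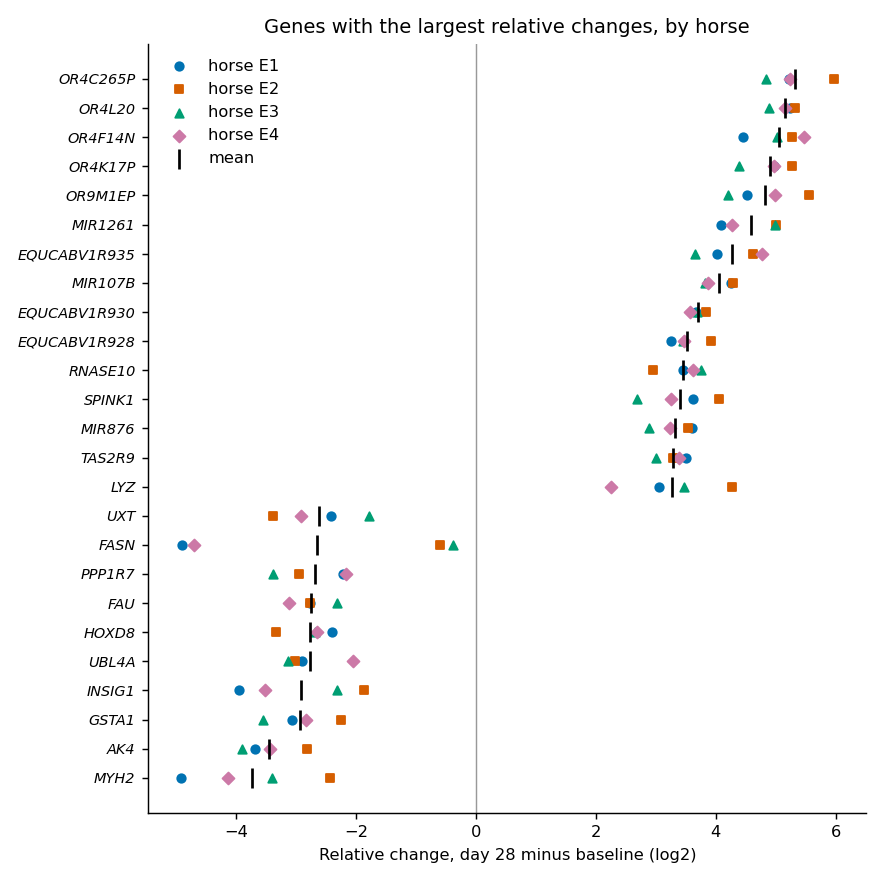
Relative change (log2, day 28 minus baseline) of the 5 olfactory receptors and 10 other genes with the largest rises and of the 10 with the largest falls, 1 symbol per horse and a bar for the mean. Only genes called the same way on both scales, with that sign in each horse, were eligible. All therefore lie on one side of 0. FASN spreads most, from -4.9 in E1 to -0.38 in E3.

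The 10 largest relative rises belonged to few kinds of gene. They were chosen among genes called higher on both scales and higher in 4 of 4 horses on both. Olfactory receptors and symbols that start with LOC or ENSECA were left out. EQUCABV1R935, EQUCABV1R930 and EQUCABV1R928, vomeronasal type 1 receptors by their symbols, rose by 4.27, 3.7 and 3.53. EQUCABV1R935 was at 8.12, 7.98, 7.64 and 7.36 on day 28, against 4.45, 3.78, 4.57 and 2.97 at baseline. The probesets of the microRNA genes MIR1261, MIR107B and MIR876 rose by 4.59, 4.06 and 3.32, and MIR1261 was at 10.15, 9.63, 9.96 and 9.98 on day 28, against 7.05, 5.97, 6.39 and 6.75 at baseline. A probeset of a microRNA gene does not show which mature arm, if any, is present. RNASE10, a ribonuclease-like protein of the epididymis, was at 7.68, 7.59, 7.76 and 8.14 on day 28, against 4.87, 5.51, 5.11 and 5.21 at baseline (relative change 3.45, standard error 0.17, adjusted p = 5.91e-05). SPINK1, a trypsin inhibitor of the pancreas, was at 7.25, 6.7, 6.73 and 6.86 on day 28, against 3.68, 2.56, 3.93 and 3.65 at baseline (relative change 3.41, standard error 0.23, adjusted p = 0.000149). TAS2R9 and LYZ complete the 10.

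The 10 largest relative falls, chosen by the same rule among lower calls, were MYH2, AK4, GSTA1, INSIG1, UBL4A, HOXD8, FAU, PPP1R7, FASN and UXT. GSTA1, a glutathione transferase, was at 3.26, 3.6, 3.29 and 3.34 on day 28, against 6.34, 5.77, 6.62 and 6.19 at baseline (relative change -2.92, standard error 0.22, adjusted p = 0.000208). UBL4A, part of the complex that guides tail-anchored proteins to the endoplasmic reticulum, was at 3.91, 4.37, 4.08 and 4.62 on day 28, against 7.1, 7.72, 7.74 and 7.02 at baseline (relative change -2.77, standard error 0.21, adjusted p = 0.000202). PPP1R7, a regulator of protein phosphatase 1, was at 3.81, 3.81, 3.69 and 4.33 on day 28, against 6.13, 6.81, 7.08 and 6.56 at baseline (relative change -2.68, standard error 0.23, adjusted p = 0.000354). UXT, a subunit of a prefoldin-like chaperone, was at 4.43, 4.03, 4.9 and 4.29 on day 28, against 7.45, 8.18, 7.45 and 7.81 at baseline (relative change -2.62, standard error 0.26, adjusted p = 0.000598). In each of these 4 the lowest baseline value is above the highest day 28 value.

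Of the genes that the study had put on its PCR card, those with a single-symbol probeset were MYH2, MYH7, MYH8, MYH15, MYLK, MUSK, COL1A1, COL1A2, COL3A1, MMP13, SCD and LPL. The study chose them partly on these arrays, so they are not independent evidence. MYH2 fell, and MYH7, MYH15, MUSK and MMP13 rose on the relative scale. MYH8, the perinatal myosin, was at 3.48, 3.13, 3.64 and 3.75 on day 28, against 2.38, 2.88, 3.03 and 2.41 at baseline, called higher raw (0.82; not without E1, 0.73, or E4, 0.65) and not relative (0.54; called higher when matched on the day 28 level, 0.67, and without E2, 0.79). LPL, which frees fatty acids from lipoproteins, was at 6.42, 6.36, 6.13 and 6.12 on day 28, against 9.08, 6.5, 6.88 and 8.96 at baseline, called lower raw (-1.6; not without E1, -1.24, or E4, -1.18) and not relative (-0.45), but called lower when matched on the day 28 level (-1.56, adjusted p = 0.0336). Its baseline was high in E1 and E4, as were the adipocyte markers, and without both horses its raw change was -0.45. MYLK, myosin light chain kinase, was at 4.27, 3.9, 4.35 and 4.65 on day 28, against 4.25, 4.39, 4.27 and 4.8 at baseline and was called on neither scale.

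The 51 genes called lower raw and higher relative had smaller raw decreases than their matched probesets. The 5 with the largest raw decreases were ATP5MG of ATP synthase, HSPB6, a small heat shock protein of muscle, SUCLG2 of the citric acid cycle, STT3B, which adds sugars to proteins, and MAP1LC3B, the autophagosome protein LC3. Their raw changes were -0.79, -0.79, -0.76, -0.75 and -0.73 and their relative changes 0.54, 0.47, 0.46, 0.56 and 0.59. STT3B was at 7.42, 7.13, 7.49 and 7.29 on day 28, against 7.92, 8.31, 8.28 and 7.83 at baseline, lower in 4 of 4 horses. These calls were fragile. With 1 horse left out, ATP5MG and SUCLG2 lost the relative call whichever horse it was (0.4 to 0.57 and 0.34 to 0.54), STT3B without E1, E3 or E4 (0.5 to 0.54), and HSPB6 and MAP1LC3B without E1, E2 or E4 (0.45 to 0.5 and 0.4 to 0.67). The raw call of MAP1LC3B was lost without E2, E3 or E4 (-0.83 to -0.5) and that of SUCLG2 without E2 (-0.74). Matched on the day 28 level, all 5 were called lower, at -1.11 (ATP5MG), -1 (HSPB6), -1.13 (SUCLG2), -1.01 (STT3B) and -1.1 (MAP1LC3B).

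The changes were also set against those of 5 other horses, L1 to L5, on day 14 of a low dose of 0.8 μg/kg 2 times a day, each relative to its own baseline and to probesets matched within its own regimen. Of 30558 probesets tested, the escalating dose change was called higher than the low dose change in 5256 (17.2%) and lower in 3706 (12.1%), in a fit of limma across all probesets. Dose, day, horses and array scale all differ between the regimens and cannot be told apart. Among the 10 largest rises and 10 largest falls on day 28 named above, the differences were largest for MIR1261, EQUCABV1R935 and MIR107B. These genes were chosen by their escalating dose change, which favours a large difference. Their relative changes were 4.59, 4.27 and 4.06 on the escalating dose, against -0.92, -0.17 and 0.15 on the low dose. In the other direction stood INSIG1, GSTA1 and AK4, at -2.91, -2.92 and -3.46 on the escalating dose and 0.66, 0.34 and -0.24 on the low dose (adjusted p for the difference 0.000137, 4.47e-05 and 2.38e-05).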

How the data were processed

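Muscle of 4 horses was measured before dosing and on day 28 on EquGene-1.0-st arrays. Per the labels and the methods, the authors made the deposited log2 values with RMA (perfect-match probes only) in Affymetrix Expression Console and compared groups in Transcriptome Analysis Console 3.0. They also ran a paired t-test of each probeset within horse in R, with Benjamini-Hochberg adjustment. The genome build and which arrays were normalized together are not given in the sources used here, and the day 28 arrays had the narrower spread (SD over probesets 1.49 to 1.53, against 1.71 to 1.8 at baseline). The deposited table was used as it stands; it holds 0 columns of no sample.

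Probesets were named through GEO's platform annotation, which can be old. Of 30559 probesets, 16789 have 1 symbol, 343 several and 13427 none; the last 2 kinds were tested but not named. A gene with several probesets (111 genes) was given by the one with the highest mean over the 18 arrays. Differences within each horse, raw or minus the running median of brightness-matched probesets (250 on each side), were tested with limma 3.58.1 in R 4.3.3 (two-sided, moderated, Benjamini-Hochberg over all probesets). The change between regimens was tested in the same way on the differences of 9 horses. The number of horses limits the precision, and 1 missing value left 30558 probesets in that fit. The scripts were tested on simulated data.

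The pairing comes from the animal. Deviations from the group means of the 2 arrays of a horse correlated at 0.065, 0.12, -0.022 and -0.002 in E1 to E4, against 0.11, 0.039, 0.027 and 0.013 with the most similar other horse, so E2 alone was most like itself. Named were the PCR card genes, the 10 largest relative rises and falls, and the 5 largest olfactory receptor rises. These rises and falls were taken from genes called the same way on both scales, with that sign in each horse. Symbols that start with LOC or ENSECA were left out, and olfactory receptors were counted apart. Also named were the 3 smallest p of each of 48 lists and genes called in opposite directions raw and relative. The largest differences between regimens were taken among the 10 rises and 10 falls. The comparison, the lists and the rule were chosen with earlier results of these data known. Alternatives covered array scaling, the matching, the variance model, the pairing, filters and each horse left out. PCR and plasma values were not analysed here, and promoter sequences were not used here.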

Additional observations from a re-analysis of the deposited data

Results flagged for a closer look

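In 16 of 374 groups of 4 horses (the named genes, and the median and spread of the arrays, at each time point), 1 horse stood apart from the other 3 by more than Dixon's critical value for its gap over the whole range. Chance alone sets about 1 in 20 groups apart. The log2 level of the horse follows, with the range of the other 3 in parentheses. On day 28, E1 had ACVR1B at 3.41 (4.06 to 4.18), CRTC2 at 4.3 (4.62 to 4.68), FASN at 3.99 (4.28 to 4.33), SRSF5 at 4.11 (3.36 to 3.47) and TXNRD1 at 6.66 (6.22 to 6.25). On day 28, E2 had CAPN2 at 4.79 (4.28 to 4.35) and KRT14 at 3.45 (3.39 to 3.4). On day 28, E4 had ATP2A1 at 11.77 (11.7 to 11.71), MRPL36 at 2.78 (3.04 to 3.07), ORAI1 at 5.44 (4.98 to 5.03) and PHKG1 at 5.31 (5.49 to 5.52). At baseline, E2 had AK4 at 6.86 (7.43 to 7.51). At baseline, E3 had FAU at 5.92 (6.76 to 6.88), FBP2 at 9.52 (8.52 to 8.65), FBXO32 at 9.12 (8.45 to 8.51) and HK2 at 5.14 (4.24 to 4.29).

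The relative change differed between the escalating dose and the low dose by a test of the difference itself (limma, 4 against 5 horses). The genes below had the largest differences among genes already chosen for their large escalating dose changes. Small p-values were thus favoured by the choice and are not independent evidence. The difference, escalating minus low, was 5.51 for MIR1261 (standard error 0.47, adjusted p = 1.92e-05), 4.43 for EQUCABV1R935 (standard error 0.27, adjusted p = 4.16e-06) and 3.92 for MIR107B (standard error 0.39, adjusted p = 4.97e-05). It was -3.57 for INSIG1 (standard error 0.42, adjusted p = 0.000137), -3.27 for GSTA1 (standard error 0.32, adjusted p = 4.47e-05) and -3.22 for AK4 (standard error 0.28, adjusted p = 2.38e-05). Dose, day, horses and array scale cannot be told apart in these differences.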

How the results depend on the processing

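Counts are of probesets called. Raw calls were 4965 higher and 10038 lower after median centring, 4528 and 3861 by the paired test of each probeset alone, 3457 higher among the brighter 50% of probesets and 4042 higher among single-symbol probesets, which are fewer tests. Relative calls were 3269 higher and 2217 lower by the paired test of each probeset alone, 4208 higher among the brighter 50%, and 3003 lower without horses E1 and E4 (added after seeing the data). With 1 horse left out, raw calls ranged over 5954 to 6682 higher and 5125 to 5464 lower, and relative calls over 5325 to 5713 higher and 3610 to 3924 lower. Without the replicate block, raw calls were 7687 higher and 6302 lower and relative calls 6839 and 5546. Without 1 escalating horse the difference between regimens was called in 7078 to 7689 probesets and without 1 low dose horse in 7517 to 9596.

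Among named genes, the paired test of each probeset alone lost 45 relative and 22 raw calls, more than any other setting. The relative calls lost included MYH7, MYH15, CSRP3, MUSK, GADD45A, PER1, PPARA, INSIG1, TAGLN and DSC2 (adjusted p 0.0505 to 0.0906). Some genes turned direction, and the cause was not tested. Raw changes became 0.49 for TNNI1 after quantile normalization and, after cyclic loess, 1.05 for TNNI1 and ATP2A2, 0.44 for ATP5MG, 0.54 for COL1A2, 0.24 for FBXO32, 0.46 for HSPB6, 0.505 for MAP1LC3B, 0.73 for MFAP5, 0.49 for STT3B and 0.45 for SUCLG2. Matched on the day 28 level, relative changes became -0.085 (ACTA1), -0.185 (ATP2A1), -0.0625 (ATP2A2), -1.11 (ATP5MG), -0.203 (CKM), -0.95 (FBXO32), -1 (HSPB6), -1.1 (MAP1LC3B), -0.43 (MFAP5), -0.12 (PYGM), -1.01 (STT3B), -1.13 (SUCLG2) and -0.038 (TNNI1). By list medians, the other matchings moved 29 (baseline level), 37 (day 28 level), 25 (single-symbol probesets), 4 (a wider window of 2001 probesets) and 3 (a narrower one) of 48 lists by more than their spread between horses.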

Other observations

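Some gene families outside the lists were counted after their values had been seen, so their counts are a description with no test. Among 27 vomeronasal type 1 receptors with EQUCABV1R symbols, 25 were called higher raw and 24 relative, with 0 lower and a median relative change of 1.41. All 5 bitter taste receptors were called higher on both scales (median 2.7 relative). Of 14 defensins, antimicrobial peptides of epithelia and leukocytes, 11 were called higher raw and 8 relative, with 0 lower. The ribonuclease A family, secreted enzymes with roles in host defence, had 5 of 6 called higher on both scales (median 1.47 relative). Chemokine receptors had 6 of 13 higher and 0 lower on both scales.

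Other large families had median relative changes nearer to that of all genes (-0.11). Of 318 microRNA genes, 86 were called higher (27%) and 21 lower (6.6%) on the relative scale, against 19.7% and 23.7% of all genes. Higher calls thus outnumbered lower ones, unlike among all genes. Their median was 0.06, so the large rises of MIR1261 and MIR107B are not those of the family. Of 247 zinc finger genes, 26 were called higher and 55 lower (median -0.18), and of 340 solute carriers 81 and 54. The median standard deviation of a gene over the 4 horses was 0.225 on day 28 and 0.206 at baseline, and 45.8% of genes had the smaller spread on day 28. Among genes above the median level it was 0.23 on day 28 and 0.245 at baseline, and 54.1% had the smaller spread on day 28.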
